A study of Mus musculus with 6 samples.

Results

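The receptors for glutamate and GABA, the main excitatory and inhibitory transmitters of the brain, were encoded by 47 protein-coding genes among the 55416 gene IDs of the count table. They were chosen by gene symbol, with no measured value in the rule. There were 26 glutamate receptor genes, with 4 AMPA (Gria), 5 kainate (Grik), 7 NMDA (Grin), 2 delta (Grid) and 8 metabotropic (Grm) genes. The 21 GABA receptor genes were 19 GABA-A genes (Gabr) and 2 GABA-B genes (Gabbr).

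The cells were mouse neural progenitor cells (NPCs) from embryonic brain. All of them were held in quiescence, a reversible arrest of the cell cycle, in medium that held 10 ng/ml FGF2 and 20 ng/ml BMP4. In the EU group, cells received 250 µM 5-ethynyluridine (EU), a uridine analogue that is built into new RNA, on day 1 after quiescence began, and RNA was taken on day 8. EU-bearing RNA was linked to biotin by a click reaction and captured on streptavidin beads. In the PBS group, cells received PBS instead of EU and their RNA went through the same capture, which measures binding without label. Each group had 3 libraries, numbered 1 to 3 in the labels. The comparison asks which RNAs made early in quiescence were still held 7 days later, beyond what binds without label. The folds below compare shares of a library and do not measure the total RNA captured. A lower share in EU than in PBS therefore does not mean capture at or below the level without label. The labels do not say whether EU was removed before harvest, nor whether replicates were separate cultures. The p-values therefore cover only the spread among the libraries at hand, which could be technical.

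AMPA, kainate and NMDA receptors are glutamate-gated channels built from subunits of their own family. Metabotropic glutamate receptors and GABA-B receptors act through G proteins, and GABA-A receptors are chloride channels made of several subunit classes. Neural progenitors and astrocytes also carry such receptors, and GABA and glutamate are known to affect progenitor proliferation.

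Depth differed widely between the groups. EU libraries held 9564856 to 26479031 counts and PBS libraries 413181 to 729649. A count of 3 was worth 0.105 to 0.377 CPM (the usual per-library scaling of counts, here with TMM factors) in EU libraries and 3.84 to 6.33 CPM in PBS libraries, so a receptor gene of a few CPM could not be measured in PBS. The PBS libraries also resembled one another less, with correlations across genes of log2 CPM of 0.573 to 0.600, against 0.942 to 0.984 among the EU libraries. All 10 progenitor markers were found, and their summed level was 3137 ± 444 CPM in EU and 3061 ± 380 CPM in PBS, with n = 3 each and the SD as error. Neuron markers summed to 584 to 727 CPM in EU and 586 to 958 CPM in PBS, most of it Map2. Of these 16 markers, 9 were abundant enough to be tested. Only Slc17a6, which defines a class of glutamatergic neurons, had no count in any library. The other untested ones, Stmn2, Nefl, Slc17a7, Gad2, Nefm and Snap25, were close to absent, with means of 0.012 to 0.950 CPM in EU. Microglia markers summed to 0.560 to 2.14 CPM in EU and 0 to 3.16 CPM in PBS, with Aif1, Cx3cr1, Csf1r, Itgam and C1qa at 0. Vascular and fibroblast markers summed to 1.76 to 5.15 CPM in EU and 0 to 9.47 CPM in PBS, with Cdh5, Cldn5, Col3a1 and Dcn at 0.

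At least 1 count was found for 44 of the 47 receptor genes in the EU libraries and for 26 in the PBS libraries. Gabra6, which encodes a GABA-A alpha subunit, and Grm6, a metabotropic receptor known from retinal bipolar cells, had 0 counts in all 6 libraries, which allows up to 0.0514 CPM over the EU group. Most of the gap in detection went with depth. At 413181 counts per library, the size of the smallest PBS library, 23.5 to 24.5 receptor genes would have had a count in the EU libraries, against 18.02 to 21.2 in the PBS libraries. The same reckoning over all protein-coding genes gave 11281 to 11591 in EU and 8856 to 9601 in PBS.

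A few subunits stood out by level. Per kilobase of exon, the scale on which genes can be compared with one another, Gria4 had the highest mean of the 47 genes in EU, at 67.7 ± 18.6 CPM per kb (SD, n = 3). That placed it 291st of 15965 protein-coding genes with a count. Grik5 followed at 48.8 ± 7.09 CPM per kb and Grin3a at 30.1 ± 15.2 CPM per kb. Next came Gria2 at 23.5 ± 5.40, Gabbr1 at 20.4 ± 7.17, Gabra2 at 16.95 ± 6.79, Grm5 at 16.6 ± 7.31 and Gria1 at 15.0 ± 4.78 CPM per kb in EU, whose neighbours in this order lay within 1 SD of each other. Grid1 and Gria3 stood at 10.3 ± 0.437 and 8.26 ± 3.33 CPM per kb in EU, and the remaining genes were below 4 CPM per kb. The lower part of this order depends on the length used. With the longest coding transcript as the length, Gria4, Grik5 and Grin3a still led, at 78.5, 67.0 and 49.3 CPM per kb. Gria3 then stood at 15.7, above Grid1 at 10.8, and Gabrg1 and Grik2 at 6.43 and 4.19 CPM per kb.

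**Figure D1:**
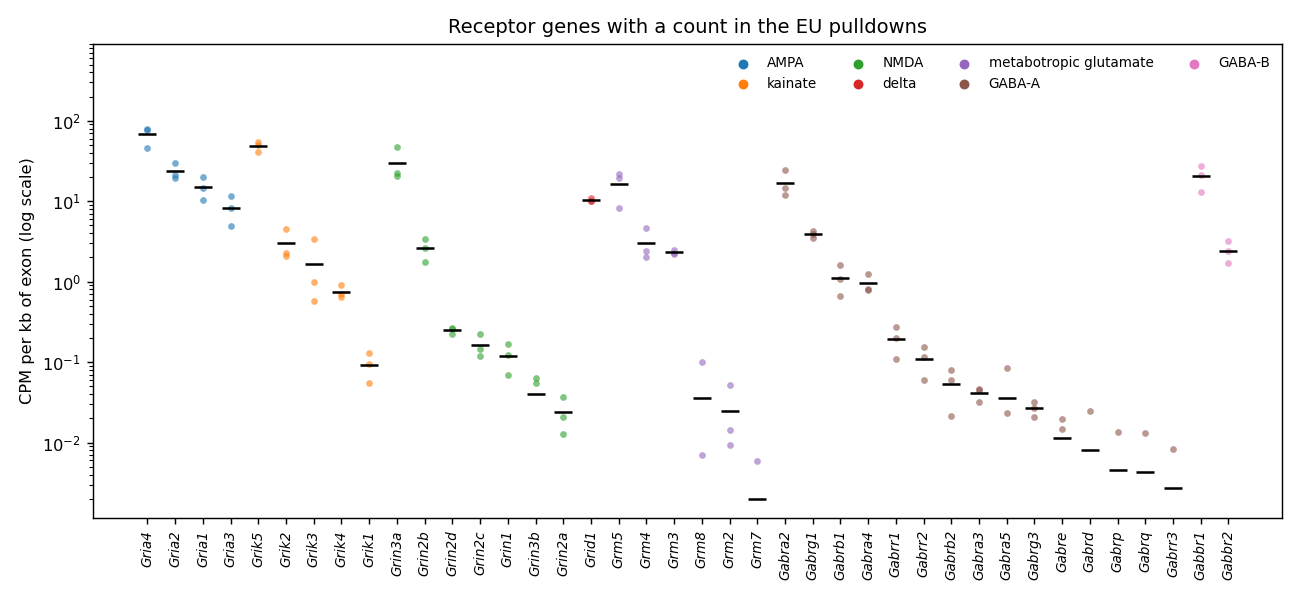
Level in EU libraries of 40 receptor genes with an EU count, in CPM per kb of exon on a log axis. Points are the 3 EU libraries, the black mark is their mean, and libraries at 0 are not drawn. Gria4 leads with a mean of 67.7 CPM per kb, and the NMDA subunit Grin1 lies at 0.12 CPM per kb.

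Receptor genes within a family resemble one another, so the longest stretch of identical sequence was sought between family members in GENCODE M21 transcripts. It reached 81 bases in the coding sequence of Gabrr2 and Gabrr1, both on chromosome 4 and close to 0 in these libraries. A run of 46 bases shared by Grik3 and Grik2 was a dinucleotide repeat outside coding sequence. Printed here are the coding stretches that the more abundant genes share. The stretch shared by the AMPA genes Gria4, on chromosome 9, and Gria2, on chromosome 3, was 41 bases long. The one shared by the kainate genes Grik5, on chromosome 7, and Grik3, on chromosome 4, was 38 bases long. Both are given in full, 5′ to 3′ on the transcript strand.
Gria4 and Gria2: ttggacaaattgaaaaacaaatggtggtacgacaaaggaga
Grik5 and Grik3: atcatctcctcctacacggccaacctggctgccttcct
Of the tested receptor genes, Grid1 shared the largest part of its 50-base words with any other gene, at 1.27%. Among the untested ones the share reached 23.6% in Grin3b, which overlaps Tmem259 on the opposite strand, and 8.24% in Grin1, which overlaps Grin1os on the opposite strand. The sources used here do not give whether counting used strand, and the low values of Grin1 and Grin3b may include reads of those partners.

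Of the 47 receptor genes, 22 passed the low-count filter of edgeR and were tested, and 25 did not. No receptor gene was called higher or lower in EU at an adjusted p below 0.05 (edgeR quasi-likelihood test, Benjamini-Hochberg). In the same fit 0% of 12477 tested genes were called higher and 0.024% lower. At an unadjusted p below 0.05, 7 of 22 receptor genes were higher, where 13% of all tested genes were, and 1 was lower, where 4.26% were. Every EU library exceeded every PBS library for 8 receptor genes, against 21.8% of all tested genes, and every EU library fell short of every PBS library for 1, against 6.4%. With library size alone these were 5 and 2 receptor genes, against 16.6% and 7.97% of all tested genes. A gene could pass the filter through its EU counts alone, so these counts over the 22 genes are a description. DESeq2 called 3 receptor genes higher (Gria4, Gabrg1 and Grik5), where it called 4.22% of 11993 genes higher, and 1 lower (Gabra2), where it called 3.65% lower. On simulated counts in which each group had its own spread, most genes that DESeq2 called were unchanged ones. On the same counts edgeR and limma-voom recovered almost none of the changed genes. A missing call by either therefore does not show that a gene was unchanged. Limma-voom called no receptor gene, and 1.78% of all genes higher and 0.2% lower. Without a low-count filter edgeR called 1 receptor gene higher, Gria4, where 0.437% of 27659 genes were, and 1 lower, where 1.21% were.

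Glutamate and GABA receptor genes lay on different sides of the comparison. A log2 fold above 0 was found for 13 of 15 tested glutamate receptor genes, with a median of 0.96, and for 2 of 7 tested GABA receptor genes, with a median of -0.60. Over all 22 it was 15 genes and a median of 0.79, against 56.5% of all tested genes and a median of 0.15. The summed level of the 26 glutamate receptor genes was 1631, 2349 and 1952 CPM in EU libraries 1 to 3, against 1009, 1427 and 970.4 CPM in PBS libraries 1 to 3. These groups did not overlap, but with library size alone as the scaling they did, with EU library 1 at 1357 CPM and PBS library 2 at 1636 CPM. The 21 GABA receptor genes summed to 501, 279 and 351 CPM in EU, against 545, 568 and 618 CPM in PBS, without overlap under either scaling. The means were 1978 ± 360 CPM in EU and 1135 ± 253 CPM in PBS for glutamate receptors, a ratio of 1.74. For GABA receptors they were 377 ± 113 CPM in EU and 577 ± 37.3 CPM in PBS, a ratio of 0.654.

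The ratio of these sums within a library does not depend on the scaling. Its separation follows from the sums above, so it adds no support of its own. Glutamate receptor counts were 3.25, 8.42 and 5.56 times the GABA receptor counts in EU libraries 1 to 3, against 1.85, 2.51 and 1.57 times in PBS libraries 1 to 3. The lowest EU ratio was above the highest PBS ratio. Some marker levels differed between the groups as well. The sum of 10 astrocyte markers overlapped, at 7159 to 13843 CPM in EU and 11582 to 20424 CPM in PBS, and 6 of the 10 had a log2 fold above 0. For 3 of them, Gfap, Aqp4 and Gja1, every EU library was below every PBS library, with Gfap at 679.7, 78.5 and 272 CPM in EU and 7387, 1835 and 1578 CPM in PBS. The sum of 10 oligodendrocyte lineage markers, all of them detected, was 1228 to 1799 CPM in EU and 832 to 916 CPM in PBS, and 3 of the 7 tested had a log2 fold above 0. Their part in the receptor result was not tested. In such bulk pulldowns, the number of cells of a type, the RNA per cell and the part of the RNA that carried label cannot be told apart.

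**Figure D2:**
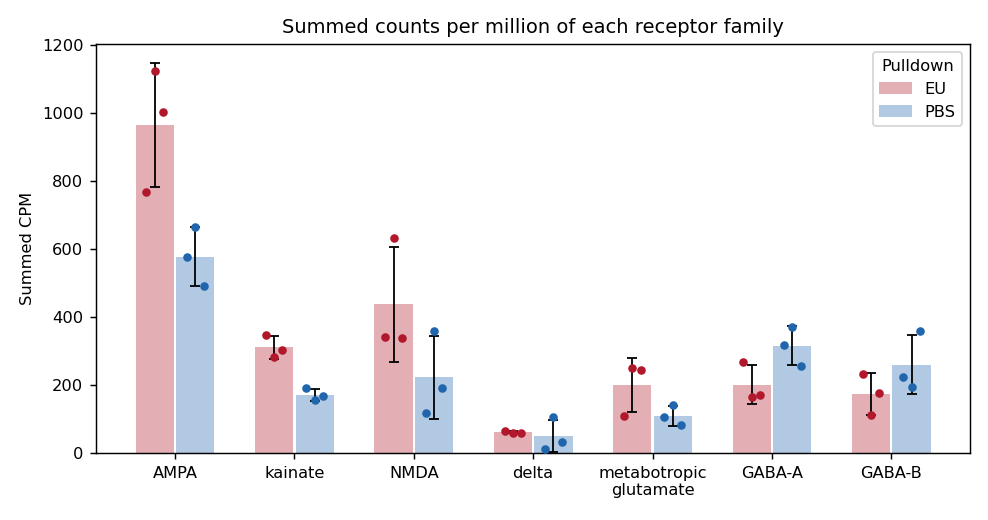
Summed CPM of each receptor family in EU (left bar of each pair) and PBS (right bar). Bars are means, error bars the SD and points the 3 libraries of each group. AMPA, kainate, NMDA and metabotropic sums have higher means in EU, and GABA-A and GABA-B sums have lower means.

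AMPA receptors carry most fast excitatory transmission, and their 4 genes made up 41.0% of receptor CPM in EU and 33.7% in PBS. Gria4 (ENSMUSG00000025892), a subunit expressed early in brain development, measured 292, 485 and 503 CPM in EU libraries 1 to 3, against 136, 169 and 162 CPM in PBS libraries 1 to 3. Every EU library was above every PBS library. The log2 fold was 1.46 ± 0.27 (SE; edgeR adjusted p = 0.080), the smallest adjusted p of the receptor genes, which missed the threshold of 0.05. This value is not particular to Gria4, as Gfap and other genes with larger unadjusted p had the same adjusted p. Gria3 (ENSMUSG00000001986) had 48.1, 114 and 82.3 CPM in EU, against 33.2, 29.6 and 42.2 CPM in PBS, without overlap except with library size alone. Its log2 fold was 1.21 ± 0.42 (SE; edgeR adjusted p = 0.174).

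The other two AMPA genes showed no such separation. Gria2 (ENSMUSG00000033981), the subunit that limits calcium entry through the channel, had 306, 462 and 329 CPM in EU, against 269.9, 348 and 209.7 CPM in PBS (log2 fold 0.41 ± 0.27, SE; edgeR adjusted p = 0.537). Gria1 (ENSMUSG00000020524) had 120.4, 62.7 and 88.9 CPM in EU, against 137, 118 and 78.0 CPM in PBS (log2 fold -0.29 ± 0.35, SE; edgeR adjusted p = 0.768). For each of them the groups overlapped.

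The makeup of the AMPA family is given as a description. A higher share of Gria4 lowers the shares of the other AMPA genes. The shares and ratios below therefore follow in part from the separation of Gria4 and add no support of their own. Of AMPA RNA per kb, Gria4 took 51.0%, 59.9% and 64.4% in EU libraries 1 to 3, against 33.1%, 37.3% and 45.6% in PBS libraries 1 to 3. Gria1 took 21.9%, 8.06% and 11.9% in EU, against 34.97%, 27.3% and 22.9% in PBS. Neither share overlapped between the groups, with Gria4 higher and Gria1 lower in EU. Gria2 held 17.1% to 23.1% in EU and 23.9% to 31.2% in PBS, so its share was also lower in EU without overlap. The shares of Gria3 overlapped. In counts, Gria4 stood at 2.43, 7.74 and 5.66 times Gria1 in EU and at 0.989, 1.43 and 2.08 times Gria1 in PBS, and at 0.954, 1.05 and 1.53 times Gria2 in EU and 0.503, 0.485 and 0.774 times Gria2 in PBS. Both ratios were higher in every EU library than in any PBS library. The ratios of Gria2 and of Gria3 to Gria1 overlapped.

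**Figure D3:**
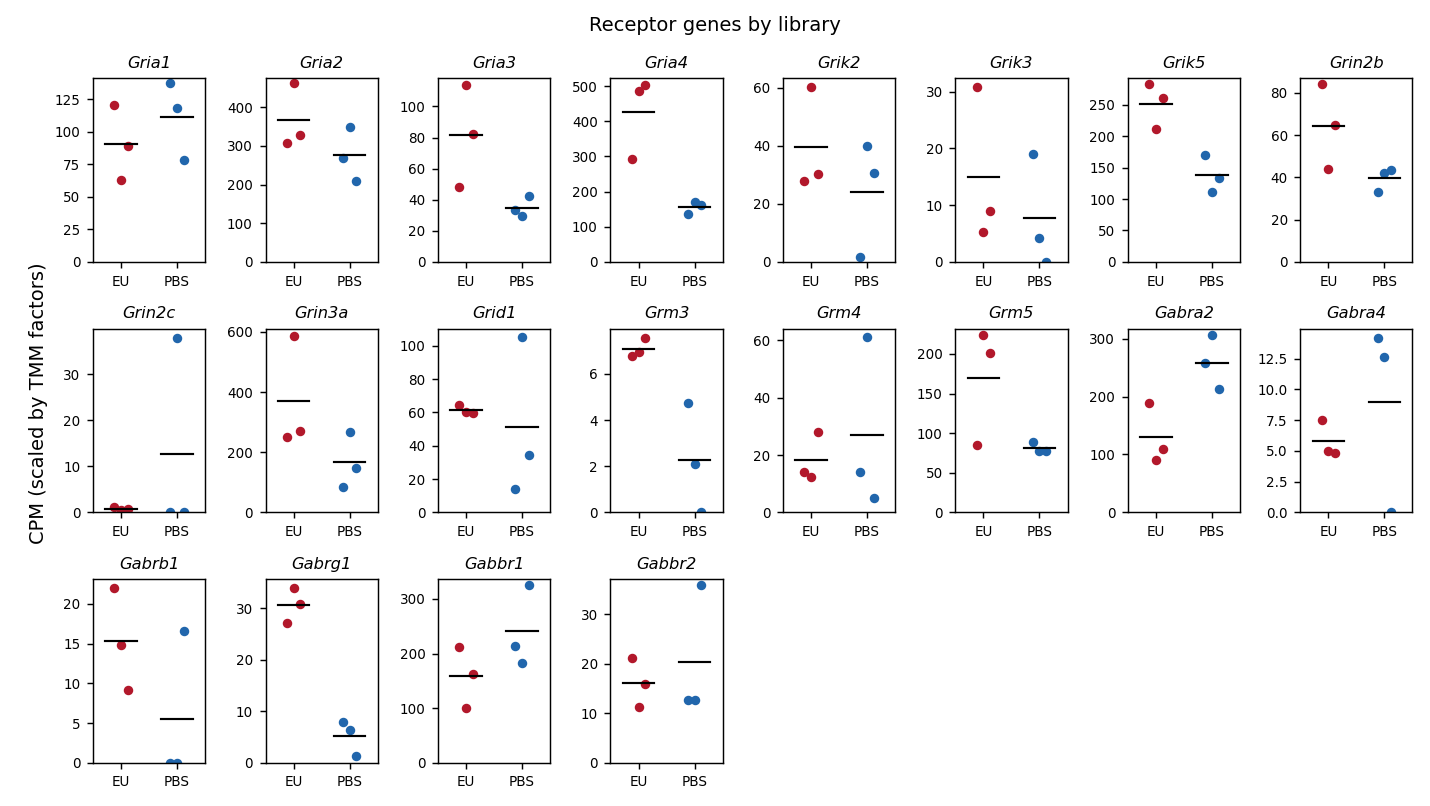
Level by library of 20 receptor genes with a mean of at least 5 CPM in EU or PBS, in CPM with EU left of PBS for each gene. Points are libraries and lines are means. Gria4 and Grik5 separate with EU above PBS, and Gabra2 separates with EU below PBS.

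Kainate receptor RNA was mostly Grik5 (ENSMUSG00000003378), which took 80.9% of the family's CPM in EU and 80.7% in PBS. Grik5 encodes a high-affinity subunit that forms working channels together with Grik1, Grik2 or Grik3 subunits. It had 284, 212 and 261 CPM in EU, against 170.5, 112 and 134 CPM in PBS, and the groups did not overlap. The log2 fold was 0.86 ± 0.25 (SE; edgeR adjusted p = 0.109). Grik2, a subunit that can form channels by itself, had 27.8, 60.3 and 30.4 CPM in EU, against 1.58, 40.1 and 30.7 CPM in PBS. Its groups overlapped, and its log2 fold was 0.73 ± 0.86 (SE; edgeR adjusted p = 0.765). Per kb, Grik5 exceeded Grik2 by 26.2, 9.01 and 22.0 times in EU libraries 1 to 3.

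The other kainate genes were low. Grik3 ranged from 5.22 to 30.8 CPM in EU and from 0 to 18.9 CPM in PBS (log2 fold 0.96 ± 1.31, SE; edgeR adjusted p = 0.805). Its log2 fold was 3.17 without PBS library 1 and 0.36 without PBS library 3. Grik4, like Grik5 a high-affinity subunit, had 3.85 to 5.40 CPM in EU and 3 counts in PBS, all in library 3. Grik1 had 5, 25 and 8 counts in EU and 0 in PBS.

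NMDA receptors need the subunit encoded by Grin1, which carries the glycine site, beside glutamate-binding subunits (Grin2) or further glycine-binding ones (Grin3). In these libraries the family's RNA was mostly Grin3a, at 84.3% of its CPM in EU and 74.8% in PBS. Grin3a (ENSMUSG00000039579) had 251, 585 and 272 CPM in EU libraries 1 to 3, against 85.2, 268 and 148 CPM in PBS libraries 1 to 3. EU library 1 was below PBS library 2 and EU library 3 just above it, so the groups overlapped. The log2 fold was 1.15 ± 0.48 (SE; edgeR adjusted p = 0.262), and it was 0.60 without EU library 2. Grin2b (ENSMUSG00000030209), the glutamate-binding subunit of the embryonic brain, had 84.3, 44.1 and 64.9 CPM in EU, against 33.2, 42.2 and 43.5 CPM in PBS. Its groups did not overlap, with the lowest EU library close to the highest PBS library, but did with DESeq2 size factors or library size alone (log2 fold 0.70 ± 0.39, SE; edgeR adjusted p = 0.439).

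Grin1 (ENSMUSG00000026959) itself was nearly absent from the pulldowns. It had 13, 19 and 26 counts in EU, or 1.63, 0.666 and 1.19 CPM, and 1, 5 and 0 counts in PBS, and it did not pass the filter. Per kb, Grin3a was 122, 694 and 180.1 times as high as Grin1 in EU libraries 1 to 3, and Grin2b was 20.2, 25.9 and 21.3 times as high. With the longest coding transcript as the gene's length, the ratio of the mean levels of Grin3a and Grin1 was 181, against 251 with all exons. Of the other NMDA genes, Grin2d had 14, 43 and 37 counts in EU and 0 in PBS, and Grin2a had 3, 19 and 5 counts in EU and 0 in PBS. Grin2c had 9, 17 and 16 counts in EU, and its 18 PBS counts were all in library 2.

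Delta receptors are related to the other channel families and act in synapse formation. Grid1 (ENSMUSG00000041078) had 64.6, 60.2 and 59.9 CPM in EU, against 14.2, 105.6 and 34.5 CPM in PBS. The EU libraries were close together and lay inside the range of the PBS libraries (log2 fold 0.29 ± 0.63, SE; edgeR adjusted p = 0.889).

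Metabotropic glutamate receptor RNA was mostly Grm5, at 84.5% of the family's CPM in EU and 73.7% in PBS. Grm5 (ENSMUSG00000049583), a receptor coupled to calcium release that is found in progenitors and young astrocytes, had 84.4, 224 and 201 CPM in EU, against 88.4, 78.1 and 78.0 CPM in PBS. EU libraries 2 and 3 were above every PBS library, whereas EU library 1 was below PBS library 1. The log2 fold was 1.06 ± 0.38 (SE; edgeR adjusted p = 0.192). Grm3, a receptor of astrocytes, had 6.78, 6.94 and 7.57 CPM in EU, against 4.74, 2.11 and 0 CPM in PBS, without overlap (log2 fold 1.69 ± 1.01, SE; edgeR adjusted p = 0.481). Its PBS values rest on 3, 1 and 0 counts, and the log2 fold was 3.16 without PBS library 1 and 1.05 without PBS library 3.

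Grm4, an inhibitory presynaptic receptor in neurons, had 14.2, 12.2 and 28.1 CPM in EU, against 14.2, 61.2 and 5.11 CPM in PBS. The groups overlapped (log2 fold -0.53 ± 0.92, SE; edgeR adjusted p = 0.855), and without PBS library 2 the log2 fold was 0.998. Grm2, Grm7 and Grm8 had at most 8 counts in any EU library and 0 in PBS.

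GABA-A receptor RNA was mostly Gabra2, which took 64.0% of the family's CPM in EU and 81.9% in PBS. Gabra2 (ENSMUSG00000000560), an alpha subunit prominent in the embryonic brain, had 188, 90.3 and 109.9 CPM in EU libraries 1 to 3, against 257, 306 and 212 CPM in PBS libraries 1 to 3. It was the 1 tested receptor gene with every EU library below every PBS library. The log2 fold was -0.996 ± 0.32 (SE; edgeR adjusted p = 0.145).

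Gabrg1 (ENSMUSG00000001260), a gamma subunit known from glia, stood on the other side. It had 27.3, 34.0 and 30.8 CPM in EU, against 7.89, 6.33 and 1.28 CPM in PBS, where these values rest on 5, 3 and 1 counts. The groups did not overlap, and the log2 fold was 2.61 ± 0.80 (SE; edgeR adjusted p = 0.125). In counts, Gabrg1 was 0.145, 0.377 and 0.280 times Gabra2 in EU, against 0.0307, 0.0207 and 0.00602 times Gabra2 in PBS. This pair was chosen because the genes separated in opposite directions, so its ratio is a description.

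The beta subunit Gabrb1, of the class that completes the channel, and the alpha subunit Gabra4 were low. Gabrb1 had 9.17 to 22.0 CPM in EU, and its PBS counts were all in library 3 (log2 fold 1.37 ± 1.34, SE; edgeR adjusted p = 0.704). Gabra4 had 4.82 to 7.54 CPM in EU and 0 to 14.2 CPM in PBS (log2 fold -0.60 ± 1.13, SE; edgeR adjusted p = 0.868). The groups of both genes overlapped.

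Further GABA-A genes were close to absent. Gabrr1, a rho subunit known from retina, had 2, 18 and 10 counts in EU and 0 in PBS. Gabrb2 had 4, 11 and 3 counts in EU and 4 in PBS, all in library 1. Its PBS counts, like those of Grin2c, were held by a single library.

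GABA-B receptors work as a dimer in which the Gabbr1 subunit binds GABA and the Gabbr2 subunit couples to G proteins. Gabbr1 (ENSMUSG00000024462) had 212, 101.2 and 163 CPM in EU, against 213, 184 and 325 CPM in PBS. EU library 1 was within the PBS range and the other two were below it (log2 fold -0.60 ± 0.34, SE; edgeR adjusted p = 0.447). Gabbr2 had 21.2, 11.4 and 16.0 CPM in EU, against 12.6, 12.7 and 35.8 CPM in PBS, with overlap (log2 fold -0.35 ± 0.72, SE; edgeR adjusted p = 0.881). Per kb, Gabbr1 was 8.61, 7.68 and 8.77 times as high as Gabbr2 in EU, a narrow range over libraries that differed in depth. Gabbr1 and Gabra2 together made up 76.4% of GABA receptor CPM in EU and 86.5% in PBS.

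**Figure D4:**
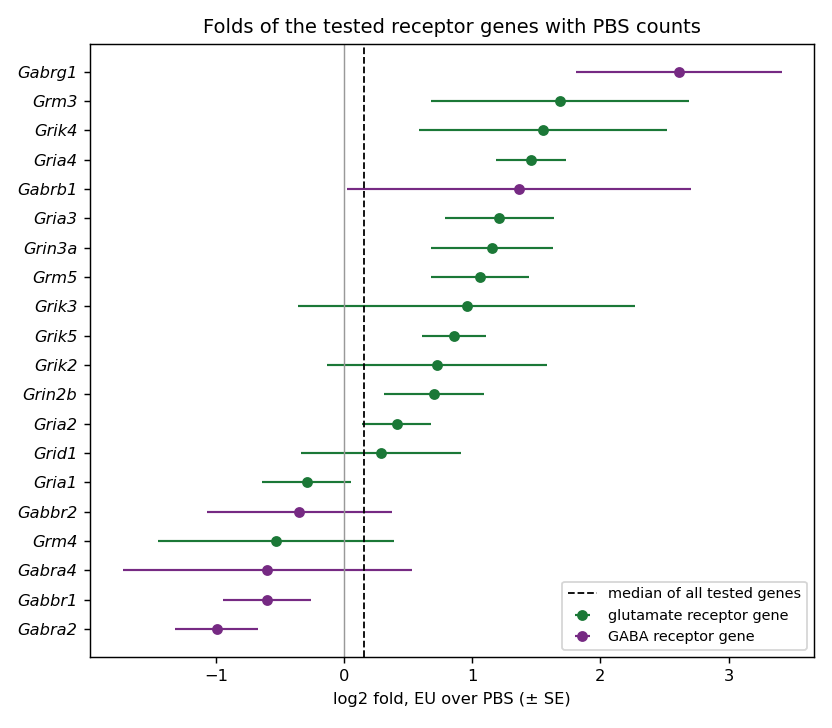
Log2 fold of EU over PBS with its SE for 20 tested receptor genes that had PBS counts. The dashed line is the median of all tested genes, 0.15. The intervals are widest for genes with few PBS counts, and values run from -0.996 in Gabra2 to 2.61 in Gabrg1.

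Genes that work beside these receptors were also compared in 5 lists with 92 genes, of which 57 were tested. None was called in either direction by edgeR, while 6 were higher and 1 was lower at an unadjusted p below 0.05, where 13% and 4.26% of all tested genes were. For 7 of the 57 every EU library exceeded every PBS library, against 21.8% of all tested genes, and for 4 the reverse held, against 6.4%. DESeq2 called 4 higher, where it called 4.22% of all genes higher, and limma-voom 2, where it called 1.78%. Neither called any of the 57 lower, where they called 3.65% and 0.2% of all genes lower.

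The auxiliary subunits of AMPA and kainate receptors, which steer their traffic and gating, had a summed level that overlapped between the groups, at 854 ± 66.1 CPM in EU and 832 ± 214 CPM in PBS. Of 14 tested, 8 had a log2 fold above 0. The 3 with the highest mean CPM were Cacng7 (log2 fold -0.54, edgeR adjusted p = 0.491), Olfm2 (1.13, adjusted p = 0.290) and Shisa9 (0.01, adjusted p = 0.992). The AMPA genes summed to 965 ± 181 CPM in EU and 578 ± 86.4 CPM in PBS.

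Postsynaptic scaffold genes, which anchor receptors at synapses, summed to 1453 ± 92.2 CPM in EU and 1318 ± 186 CPM in PBS, and 16 of 23 tested had a log2 fold above 0. Nlgn2, Dlgap1 and Dlg4 led this list, with log2 folds of 0.24, 0.02 and -0.21 (edgeR adjusted p = 0.846, 0.988 and 0.879). The receptor genes themselves summed to 2355 ± 252 CPM in EU and 1712 ± 246 CPM in PBS.

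The sums of genes for transmitter handling overlapped between the groups. Those for glutamate transport and metabolism summed to 11026 ± 2948 CPM in EU and 9259 ± 492 CPM in PBS. They were led by the glutamate transporters Slc1a3 (log2 fold -0.02, edgeR adjusted p = 0.979) and Slc1a2 (0.36, adjusted p = 0.607) and by glutamine synthetase, Glul (0.65, adjusted p = 0.491). Those for GABA synthesis, transport and breakdown summed to 2035 ± 466 CPM in EU and 2061 ± 378 CPM in PBS, and they included the degrading enzyme Abat (log2 fold 0.11, edgeR adjusted p = 0.925) and the transporter Slc6a11 (-0.11, adjusted p = 0.942).

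Channels for glycine, acetylcholine and serotonin were low. Their 20 genes summed to 64.7 ± 3.996 CPM in EU and 29.6 ± 22.9 CPM in PBS, 9 had no count in any library, and 3 were tested. Glrb, the beta subunit of glycine receptors, had 31.5 ± 5.98 CPM in EU and 18.01 ± 21.4 CPM in PBS (log2 fold 0.86, edgeR adjusted p = 0.740). The log2 fold of Chrna4 was 1.41 (edgeR adjusted p = 0.631), and Chrnb2, with which it forms a nicotinic receptor, had 7.56 ± 2.08 CPM in EU and no PBS count.

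Long genes were common among the receptors. The 22 tested ones spanned a median of 298 kb from start to end, against 26.8 kb for 11095 tested protein-coding genes, and 17 of 22 exceeded 100 kb, against 15.8%. Their exons were also longer, with a median of 7.64 kb against 4.86 kb. Uridine content and length together set how many EU sites a transcript can offer. In the longest coding transcript of these genes, uridine content had a median of 26.2% against 24.6%. It ran from 19.2% in Grik5 to 32.8% in Gabrg1. Uridine content was not tested against the folds.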

How the data were processed

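RNA captured on streptavidin beads was measured in 3 EU and 3 PBS libraries. The authors deposited whole-number read counts per Ensembl gene ID, without normalization. Per the submitters' processing notes, featureCounts 2.0.1, STAR 2.7.10b, UMI-tools 1.1.2 and bcl2fastq 2.20.0 were used with GRCm39; their roles, the strand setting and the treatment of multiply matching reads were not given in the sources used here. GENCODE M21, on an earlier build, supplied symbols, lengths and sequences, and no coordinates are given.

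Counts were tested in R 4.3.3 with edgeR 4.0.16 (quasi-likelihood test, TMM factors, filterByExpr, group as the only term). P-values were Benjamini-Hochberg adjusted over all tested genes with a threshold of 0.05. SE is the log2 fold divided by the square root of F. Exonic length is the union of a gene's exons, and CPM per kb divides by it. Expected detection at equal depth was hypergeometric. Floors of 3 counts cover counting error only. The procedure was tested on simulated data. With the EU spread in both groups all tools recovered most large changes; with each group's own spread edgeR and limma-voom recovered almost none, and most genes that DESeq2 called were unchanged ones, so its calls are given as an alternative.

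Folds are given for receptor genes with a mean of at least 5 CPM in either group and for those leading their family, and for the 3 genes of each pathway list with the highest mean CPM. A few genes that this rule names are not reported here. Values of lower receptor genes, the ratios and Gfap were chosen after they were seen. Members and lists were chosen with earlier results of these data known. Alternatives were a replicate block, DESeq2 1.42.0, limma-voom (limma 3.58.1), other scalings and filters, and leaving out each library. Overlap of the groups under other scalings was added after seeing the data.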

Additional observations from a re-analysis of the deposited data

How the results depend on the processing

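The ratio of summed receptor CPM kept its direction under every scaling and with each library left out: it ran from 1.51 to 2.08 for glutamate receptors, from 0.529 to 0.710 for GABA receptors and from 1.22 to 1.56 for all. DESeq2 called 506 genes higher and 438 lower, with 3 and 1 receptor genes and 4 pathway genes higher. Limma-voom called 222 and 25, with 2 pathway genes higher. Without a low-count filter edgeR called 121 and 336, with 1 receptor gene in each direction, and 32 of 44 receptor genes had a log2 fold above 0. Library size alone gave 3 and 40 genes, and DESeq2 size factors gave 7 lower. The median log2 fold of all genes was 0.05 with DESeq2 size factors and -0.01 with library size alone. Leaving out 1 library gave 0 to 11 genes called lower (11 without EU library 1, 0 without any 1 PBS library), 0 receptor genes called and 11 to 18 with a log2 fold above 0. Of 21 log2 folds, 14 moved by over 1.5 times or changed sign without some library. Gria4, Grik5, Gria3, Grm5, Gabra2 and Gabrg1 were among the 7 that did not. Those of 4 genes changed sign: over the libraries left out they ran from -1.17 to 0.15 in Gabra4 and from -0.091 to 1.38 in Grid1 (sign change without PBS library 1 in each), from -1.05 to 0.998 in Grm4 (without PBS library 2) and from -0.64 to 0.41 in Gabbr2 (without PBS library 3). The cause was not tested.

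Same-numbered libraries deviated from their group means with correlations of 0.074, 0.051 and 0.034, and pairs with different numbers with correlations of -0.055 to -0.00036. Each library thus correlated best with its own number, but below the 0.1 set for pairing, and the labels do not say whether equal numbers mark a shared batch. When the replicate block was added, edgeR called 148 genes higher and 49 lower. These included 2 receptor genes, Gria4 (log2 fold 1.42, adjusted p = 1.7e-04) and Grin3a (1.18, adjusted p = 0.0064), and Gabra4 had a log2 fold of 0.023.

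Depth limits the low genes: 21 of 47 receptor genes had no PBS count and 6 had PBS counts in 1 library.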
